A study of Mus musculus with 9 samples.

Results

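The 36 genes described here encode regulators of chromatin and of DNA methylation, and they were read by symbol from a table of 23366 genes in CD8+ T cells isolated from B16F10 tumours, a transplantable melanoma of the mouse. All 36 symbols were in the table. Expression had been measured by RNA sequencing in 9 bulk libraries from C57BL/6 mice, 5 from WT mice and 4 from IL27ra KO mice, which lack the receptor chain that binds interleukin 27, and both groups carried the same tumour. The labels do not say how the allele was made, whether the receptor was lost in T cells alone or in the whole mouse, the age or sex of the mice, or whether each library came from 1 animal. The p-values therefore measure how these libraries vary, and some of that may be technical.

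DNA methyltransferases add methyl groups to cytosine and TET dioxygenases oxidise them, while enzymes that methylate, demethylate, acetylate or deacetylate histones and the ATP-driven remodelling complexes set how accessible a gene is. In CD8+ T cells these enzymes are known for closing memory genes as effector cells form, through Dnmt3a and Polycomb repressive complex 2, and for fixing the state of exhausted cells in tumours.

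Few of these regulators had RNA levels that separated the genotypes. Levels are given as FPKM, fragments counted per length of transcript and per depth of library, which the authors scaled between libraries by TMM (trimmed mean of M values). Of the 36 genes, 33 reached a mean of 1 FPKM and were tested, and 0 of the 33 passed (limma, Benjamini-Hochberg adjusted p under 0.05 over 10374 genes), against 4.24% of all genes tested (3.13% higher and 1.11% lower). At an unadjusted p under 0.05, 5 of the 33 passed, 15.2%, against 15.1% of all genes tested. For 2 of the 33, Hdac5 and Kdm6b, no library of one genotype lay within the range of the other, which is 6.06% against 6.73% of all genes tested. The median difference, IL27ra KO minus WT in log2(FPKM + 1), was -0.04 over the 33 and 0.02 over all genes tested, and the median size of the difference without its sign was 0.17 against 0.22. For 28 of the 33, or 84.8%, the 95% interval of the difference lay within a 2-fold change in either direction, as it did for 77.5% of all genes tested. That count holds on the log2(FPKM + 1) scale, which compresses low levels. It was 24 of 33 with a pseudocount of 0.1, against 58.1% of all genes tested. It was 8 of 33 with libraries rescaled to equal levels of CD8+ T cell identity markers, against 23.6%. In a fit that included the macrophage marker level it was 1 of 33, against 2.62%. In the first count the exceptions were Hdac1, Hdac2, Hdac4, Hdac5 and Kat2a. Without the library labelled WT replicate 2, described below, 0 of the 33 passed (limma), against 4.85% of all genes tested. At an unadjusted p under 0.05, 5 of the 33 passed in that fit, and the share of all genes was not computed. Without that library and IL27ra KO replicate 4, 1 of the 33 passed as higher (Hdac5), against 8.59% of all genes tested.

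**Figure D1:**
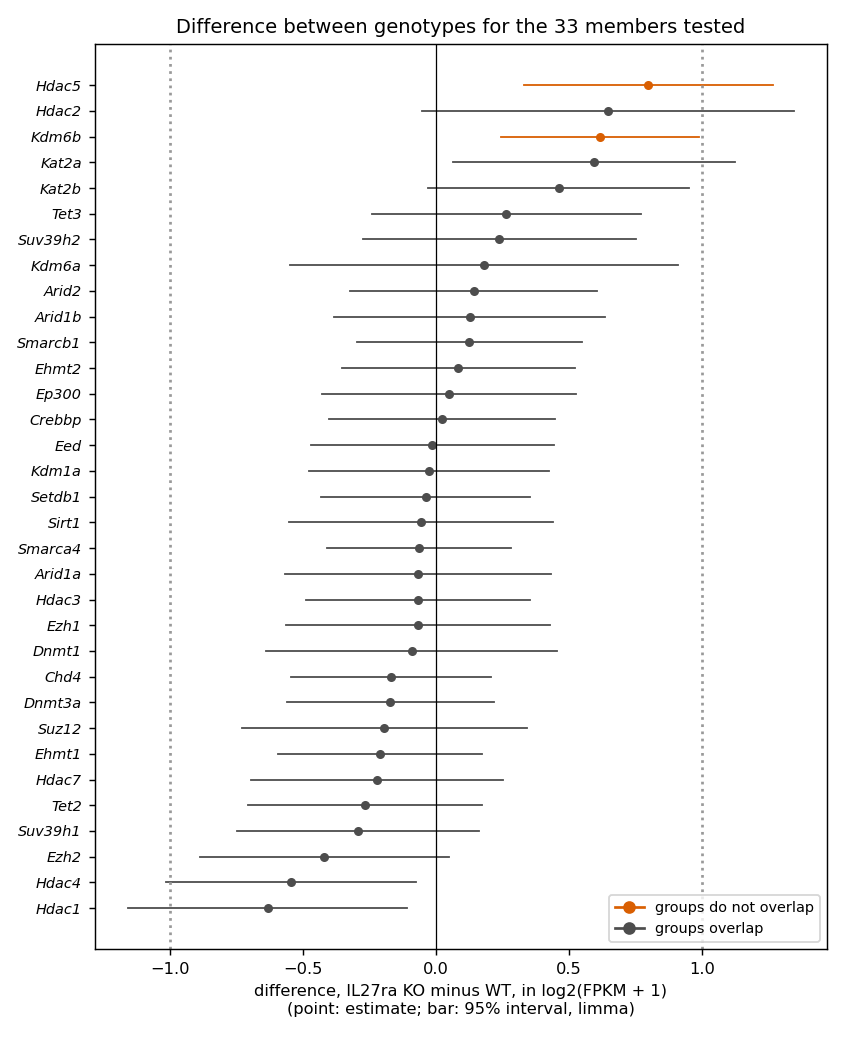
Difference between genotypes (x axis, IL27ra KO minus WT in log2(FPKM + 1)) for the 33 genes tested, each point an estimate and each bar its 95% interval from limma, with dotted lines at a 2-fold change. Most bars cross 0 and stay between the dotted lines, and Hdac5 and Kdm6b, in orange, are the 2 genes whose groups do not overlap.

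The libraries differed in ways that bear on these values. Spacing of the low FPKM values implied 1730000 to 4100000 fragments per library. These estimates rest on TMM-scaled values, so the numbers sequenced may differ. The rRNA precursor Rn45s took 23.9% to 53.8% of the summed FPKM. Il27ra, the targeted gene, differed by -1.10 in log2(FPKM + 1) and did not pass (limma, adjusted p = 0.0996). It had 25.7, 15.2, 14.4 and 15.8 FPKM in the libraries labelled WT replicates 1, 3, 4 and 5. In the library labelled WT replicate 2 it had 5.14 FPKM, within the range of the IL27ra KO libraries (4.09 to 7.80 FPKM). That library held the lowest of the 9 values for 13 of the 36 genes and the highest for 6. IL27ra KO replicate 4 and WT replicate 3 each held the highest value for 8. Such counts were not made over all genes. RNA of CD8+ T cells was present in all 9 libraries, with means of 168.5, 166.9 and 131.8 FPKM for Cd3e, Cd8b1 and Cd3g. The summed level of 22 macrophage markers was 103.6 to 489 FPKM in WT and 610.1 to 2051 FPKM in IL27ra KO, lowest in replicate 4 of the latter, and 20 of the 21 tested were higher. Trem2, Fcgr1, Fcgr3, Ms4a7, Cd14 and Cd163 of that list were at 0 in 1 to 3 WT libraries and in 0 IL27ra KO libraries. The sum of 15 CD8+ T cell identity markers was 1120 to 1766 FPKM in WT. In IL27ra KO it was 518.6 to 1353 FPKM, highest in replicate 4. Estimates were below 0 for 14 of the 15, with a median difference of -0.73. Of the 15, 2 passed as lower (limma, 11 at an unadjusted p under 0.05, of which Trat1 was higher). Melanoma RNA was present in both genotypes, with 0 of 9 markers past the threshold (limma, 2 at an unadjusted p under 0.05) and sums of 444.7 to 1445 FPKM in WT and 709 to 1543 FPKM in IL27ra KO. Estimates were above 0 for all 9 melanoma markers, with a median difference of 0.55. Of the tested dendritic cell markers 4 of 7 were higher and 1 lower, of the neutrophil markers 2 of 4 were higher and of the CD4+ T cell markers 1 of 2. Of B cell, NK cell and stromal markers 1, 2 and 1 were tested, and 0 passed (limma, 1, 1 and 0 at an unadjusted p under 0.05). The part of these other cells in the results below was not tested. In bulk samples, fewer cells of a type and less RNA per cell cannot be told apart.

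**Figure D2:**
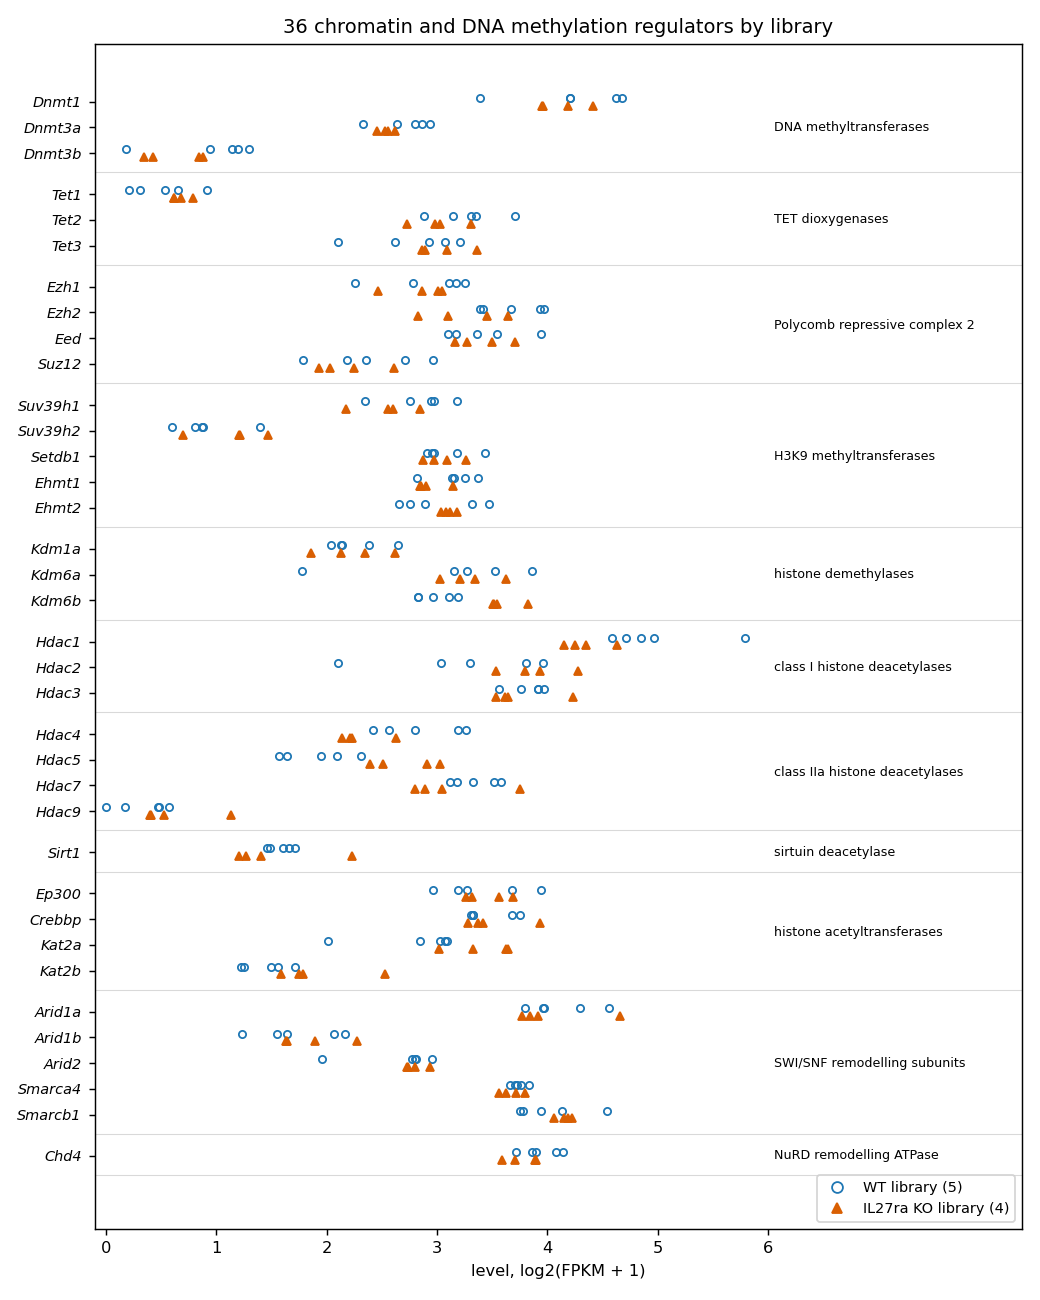
Level of each of the 36 genes (x axis, log2(FPKM + 1)) in each library, ordered by role, with open circles for the 5 WT and triangles for the 4 IL27ra KO libraries. The symbols of the genotypes mix for all genes but Hdac5 and Kdm6b, and the single WT circle far from the others for Hdac1, Hdac2, Kdm6a, Kat2a and Arid2 is the library labelled WT replicate 2.

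By level, Hdac1 was first with a mean of 26.5 FPKM over the 9 libraries, followed by Dnmt1 (17.7 FPKM), Arid1a (16.4 FPKM), Smarcb1 (16.2 FPKM) and Chd4 (13.7 FPKM). FPKM is per length, so these levels can be set side by side. Neighbours in this order did not differ beyond their spread, since Dnmt1 ran from 9.45 to 24.6 FPKM, Arid1a from 12.6 to 24.3 FPKM and Smarcb1 from 12.5 to 22.2 FPKM. At the other end were Hdac9, Tet1 and Dnmt3b, with means of 0.411, 0.527 and 0.81 FPKM, too low to enter the fit. The most even gene was Smarca4, which encodes the BRG1 ATPase of SWI/SNF complexes. Its highest value was 1.23 times its lowest, with 11.6 to 13.3 FPKM in WT and 10.8 to 12.9 FPKM in IL27ra KO.

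The RefSeq table of promoters (250 bases before to 50 after each start, build GRCm38.p6) held 45 starts for 32 of the 36 genes, and Kdm6b, Hdac1, Hdac3 and Arid2 had no entry. The promoters of these regulators were rich in the dinucleotide CpG, the substrate of the DNA methyltransferases themselves. They held a median of 29 CpG in 300 bases, against 13 in the promoters of all protein-coding genes, and the ratio of observed to expected CpG was above 0.6 in 36 of 45 (80.0%) against 47.2%. The 9 at or below it belonged to genes of high and of low level, namely Dnmt1 and Hdac7 (2 starts each), Dnmt3a, Tet3, Kat2b and both starts of Hdac9, which held 3 and 0 CpG. An E2F motif, the cell cycle element TTTCCCGC, TTTCGCGC, TTTGCCGC or TTTGGCGC on either strand, was found in 6 of 45 (13.3%) against 2.86% of the promoters of protein-coding genes. Every one of these words contains CpG, in which the promoters of these regulators were richer, and promoters of like CpG content were not compared. The shares therefore do not show an excess of the motif beyond base composition. A match is a description of these letters and not a site of binding.

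DNA methyltransferases differed by less than the spread between libraries. Dnmt1, which copies methylation at replication, had 17.5, 9.45, 24.6, 23.6 and 17.5 FPKM in WT replicates 1 to 5 and 14.6, 17.2, 14.5 and 20.3 FPKM in IL27ra KO replicates 1 to 4. The WT libraries spanned the whole IL27ra KO range, and genotypes differed by -0.09 in log2(FPKM + 1) (SE 0.26, limma adjusted p = 0.919). Dnmt3a, which writes new methylation, had 4.03 to 6.64 FPKM in WT and 4.49 to 5.14 FPKM in IL27ra KO, a difference of -0.17 (95% interval -0.56 to 0.22). Without the library labelled WT replicate 2, the lowest for both, Dnmt1 was at -0.30 and Dnmt3a at -0.27 (limma, adjusted p = 0.436 and 0.417), and without WT replicate 3 or 4 Dnmt1 was at 0.02 or 0.01. Its relative Dnmt3b had 1.30, 1.46, 0.14, 1.21 and 0.92 FPKM in WT and 0.80, 0.35, 0.84 and 0.27 FPKM in IL27ra KO, with overlapping groups (two-sided exact permutation p = 0.206, unadjusted, 1 of 3 such tests). Dnmt1 exceeded Dnmt3a in all 9 libraries, by a log2 ratio of 1.51 ± 0.29 in WT (SD, n = 5) and 1.59 ± 0.27 in IL27ra KO (SD, n = 4).

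TET dioxygenases, which start the removal of DNA methylation, were led by Tet2 and Tet3. Tet2 had 6.37 to 12.1 FPKM in WT and 5.64 to 8.89 FPKM in IL27ra KO, and Tet3 had 3.31 to 8.25 FPKM and 6.28 to 9.26 FPKM. The differences had opposite signs, -0.27 (SE 0.21) for Tet2 and 0.26 (SE 0.24) for Tet3, with a change of sign in 2 and 1 of 19 alternative fits, and neither passed (limma, adjusted p = 0.613 and 0.676). Tet3 was at 0.09 without the library labelled WT replicate 2 and at 0.16 without IL27ra KO replicate 4, and Tet2 at -0.16 without WT replicate 3 and at -0.17 without IL27ra KO replicate 2. Their log2 ratio, Tet2 over Tet3, was above 0 in all 5 WT libraries (0.15 to 1.03) and between -0.33 and 0.22 in IL27ra KO, so the groups overlapped. Tet1, with 0.16 to 0.89 FPKM in WT and 0.54 to 0.73 FPKM in IL27ra KO, was low in every library (exact permutation p = 0.349).

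Polycomb repressive complex 2 places methyl groups on lysine 27 of histone H3 and consists of a catalytic EZH subunit with EED and SUZ12. Ezh2, the catalytic subunit of dividing cells, had 9.70, 14.3, 14.7, 9.50 and 11.7 FPKM in WT and 9.97, 11.5, 7.58 and 6.09 FPKM in IL27ra KO. The 2 lowest values were those of IL27ra KO replicates 3 and 4, and the other 2 lay within the WT range. The difference of -0.42 (95% interval -0.89 to 0.05) did not pass (limma, adjusted p = 0.400). Ezh1, the form found in resting cells, differed by -0.07, Eed by -0.01 and Suz12 by -0.19, with adjusted p of 0.933, 0.987 and 0.797 in limma. All 4 estimates were below 0, with a median of -0.13. Rescaled to CD8+ T cell identity markers all 4 were above 0, in a fit where the median of all genes was 0.54, and relative to that median Ezh2 was at -0.38, Suz12 at -0.23, Ezh1 at -0.07 and Eed at 0.02. That was the single fit of 19 in which Ezh2 was above 0, while Ezh1 and Eed were above 0 in 4 and 9 fits. The ratio of Ezh2 to Ezh1 was above 1 in 8 of 9 libraries, the exception being IL27ra KO replicate 4 with a log2 ratio of -0.22.

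The E2F motif was found in promoters of Dnmt1, Ezh2, Suz12, the H3K9 methyltransferase gene Suv39h1, the SWI/SNF gene Arid1a and the acetyltransferase gene Kat2a. The windows are shown because Dnmt1, Ezh2 and Suv39h1 are known as genes of dividing cells. Capitals mark the motif as read on the strand of the gene, 5′ to 3′, and each line gives the build GRCm38.p6.
Ezh2, chr6:47595010-47595037, minus strand: ggttgctgcgTTTGGCGCtcggtccggt
Dnmt1, chr9:20952825-20952852, minus strand: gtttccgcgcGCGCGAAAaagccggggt
Dnmt1, chr9:20952574-20952600, minus strand: cggggcagcgTTTGGCGCgggctgtgc
Suz12, chr11:79992877-79992904, plus strand: gacccctcatTTTCCCGCgaattcagtt
Suv39h1, chrX:8074408-8074435, minus strand: gaaggccggcGCGGCAAAcgtgggggcc
Arid1a, chr4:133754023-133754050, minus strand: ccctccctccTTTCCCGCcccctccccc
Kat2a, chr11:100712509-100712536, minus strand: aggatgggaaGCGGCAAAggaagactac
With the start base counted as base 1, the motif began at base 4 of Ezh2. It began 55 bases before the start of Arid1a, 59 before that of Kat2a, 64 before that of Suv39h1 and 219 before that of Suz12. Arid1a and Suv39h1 each had a further start without the motif. Dnmt1 held it at 1 of 3 starts, where it began both 219 bases before the start and at base 34. Differences of these 6 genes ran from -0.42 for Ezh2 to 0.59 for Kat2a, on both sides of 0. Beside them, 28 genes of cell division, such as Pcna and Mki67, had a median difference of -0.10, with 0 of 28 past the threshold (limma, 1 at an unadjusted p under 0.05). Their summed level was 513.8 to 606.9 FPKM in WT and 455.7 to 558.9 FPKM in IL27ra KO, with overlapping groups.

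Methyltransferases for lysine 9 of histone H3, a mark of silent chromatin, did not differ beyond their spread. Suv39h1 had 4.10 to 8.06 FPKM in WT and 3.53 to 6.19 FPKM in IL27ra KO (difference -0.29, limma adjusted p = 0.585), and Suv39h2 had 0.52 to 1.64 FPKM and 0.63 to 1.77 FPKM (0.24, adjusted p = 0.723). Setdb1, which silences retroelements, had 6.52 to 9.80 FPKM in WT and 6.33 to 8.61 FPKM in IL27ra KO (-0.04, 95% interval -0.43 to 0.35). Ehmt1 and Ehmt2, which encode the paired enzymes GLP and G9a, differed by -0.21 and 0.08. They stood near a ratio of 1, Ehmt1 being above Ehmt2 in 4 of the 9 libraries. All 5 intervals lay within a 2-fold change in log2(FPKM + 1), but that of Suv39h2, the lowest of the 5, did not with a pseudocount of 0.1 (0.43, SE 0.46).

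Among the histone demethylases, Kdm6b had the largest estimate. It encodes JMJD3, which removes the Polycomb mark from lysine 27 of histone H3. It had 7.65, 6.10, 6.79, 6.09 and 8.10 FPKM in WT replicates 1 to 5 and 10.4, 10.7, 10.4 and 13.2 FPKM in IL27ra KO replicates 1 to 4. All 4 IL27ra KO libraries lay above the highest WT library, with means of 6.95 ± 0.91 FPKM over the 5 WT libraries (SD, n = 5) and 11.2 ± 1.34 FPKM over the 4 IL27ra KO libraries (SD, n = 4). Genotypes differed by 0.62 in log2(FPKM + 1) (SE 0.17, 95% interval 0.24 to 0.99) and did not pass (limma, adjusted p = 0.0678). It passed in 2 of 19 alternative fits, with weights for library quality (0.52, adjusted p = 0.0329) and with libraries rescaled to equal levels of CD8+ T cell identity markers (1.18, adjusted p = 0.0177). That scaling put the median of all genes at 0.54. Relative to that median the difference was 0.64. The highest value belonged to IL27ra KO replicate 4, the IL27ra KO library with the lowest macrophage and the highest CD8+ T cell identity sums.

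Kdm6a, the X-linked relative of Kdm6b that acts on the same mark, had 10.5, 2.43, 13.6, 8.66 and 7.92 FPKM in WT and 7.13, 9.17, 8.22 and 11.3 FPKM in IL27ra KO. The library labelled WT replicate 2 was the lowest, and the difference went from 0.18 to -0.16 without it (limma, adjusted p = 0.872 and 0.762). Kdm6b was below Kdm6a in WT replicates 1, 3 and 4 and above it in all 4 IL27ra KO libraries, where the log2 ratio was 0.20 to 0.49. WT ratios ran from -0.90 to 1.05 and so enclosed them. Kdm1a, which encodes LSD1, had 3.11 to 5.26 FPKM in WT and 2.62 to 5.15 FPKM in IL27ra KO, and differed by -0.03 (limma, adjusted p = 0.974).

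Estimates of the histone deacetylases had opposite signs within each class. The signs of Hdac1, Hdac2, Hdac4 and Hdac5 were the same in the alternative fits, but rescaling to CD8+ T cell identity markers put Hdac1 at -0.03 and Hdac4 at -0.02 (-0.57 and -0.56 relative to the median of all genes), and in the fit that included the macrophage level Hdac4 was at -0.27. Hdac5, a class IIa enzyme that moves between cytoplasm and nucleus under control of kinases, had 3.27, 1.97, 2.86, 2.13 and 3.96 FPKM in WT replicates 1 to 5 and 7.16, 4.70, 6.53 and 4.25 FPKM in IL27ra KO replicates 1 to 4. All IL27ra KO values lay above all WT values, the closest being WT replicate 5 and IL27ra KO replicate 4. The WT mean was 2.84 ± 0.82 FPKM (SD, n = 5), the IL27ra KO mean was 5.66 ± 1.40 FPKM (SD, n = 4), and the difference of 0.80 (SE 0.22, 95% interval 0.33 to 1.27) did not pass (limma, adjusted p = 0.0587). It passed in 4 of 18 alternative fits, with a value of 0.90 without IL27ra KO replicate 4 (adjusted p = 0.0381), 0.82 without that library and the one labelled WT replicate 2, 0.76 with quality weights and 1.31 with libraries rescaled to CD8+ T cell identity markers (0.77 relative to the median of all genes).

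Hdac4, of the same class, had estimates on the other side of 0. It had 4.91, 8.61, 8.11, 5.95 and 4.37 FPKM in WT and 3.68, 3.64, 3.40 and 5.19 FPKM in IL27ra KO, where replicates 1 to 3 lay below every WT library and replicate 4 within the WT range. The difference of -0.55 (95% interval -1.02 to -0.08) did not pass (limma, adjusted p = 0.236). The log2 ratio of Hdac4 to Hdac5 was 0.47, 1.69, 1.24, 1.15 and 0.11 in WT and -0.80, -0.30, -0.78 and 0.24 in IL27ra KO. Hdac4 was thus above Hdac5 in all WT libraries and below it in 3 of the 4 IL27ra KO libraries, and the groups overlapped through WT replicate 5 and IL27ra KO replicate 4. Hdac7, the class IIa enzyme known for its role in thymocytes, had 7.70 to 10.95 FPKM in WT and 5.97 to 12.5 FPKM in IL27ra KO (difference -0.22, adjusted p = 0.718). Hdac9 was at 0 in the library labelled WT replicate 2 and at most 0.49 FPKM in the other WT libraries, and at 0.32 to 1.20 FPKM in IL27ra KO (exact permutation p = 0.286).

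The 250 bases upstream of the starts of Hdac4 and Hdac5 are shown because these 2 genes of 1 class had estimates of opposite sign. Capitals mark CpG, and both are read on the strand of the gene in the build GRCm38.p6.
Hdac4, chr1:92180342-92180591, minus strand: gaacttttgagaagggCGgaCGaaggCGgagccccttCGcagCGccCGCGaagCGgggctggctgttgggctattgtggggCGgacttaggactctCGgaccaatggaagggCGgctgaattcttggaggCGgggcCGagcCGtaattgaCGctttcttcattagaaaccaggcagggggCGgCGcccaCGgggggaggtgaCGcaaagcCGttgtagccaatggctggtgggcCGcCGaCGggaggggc
Hdac5, chr11:102230173-102230422, minus strand: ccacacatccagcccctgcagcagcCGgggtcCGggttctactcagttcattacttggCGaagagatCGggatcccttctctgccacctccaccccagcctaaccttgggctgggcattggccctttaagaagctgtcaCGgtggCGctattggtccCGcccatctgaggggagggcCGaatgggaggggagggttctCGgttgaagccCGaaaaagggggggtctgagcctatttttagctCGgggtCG
Hdac4 held 23 CpG in this stretch and Hdac5 held 12, and 0 matches to the E2F motif were in either, which says only that these letters are not in this window.

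**Figure D3:**
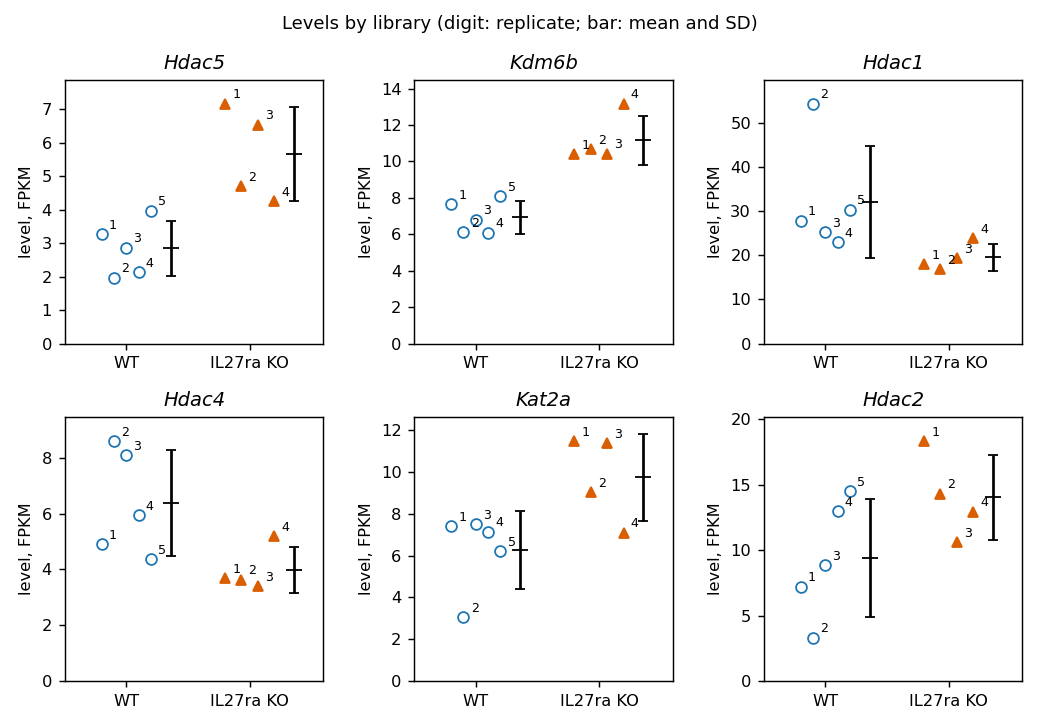
Level (y axis, FPKM) in each library for the 6 genes with the largest estimates, with the replicate number beside each symbol and the mean and SD as a bar. Hdac5 and Kdm6b do not overlap between genotypes, while for Hdac1, Hdac4, Kat2a and Hdac2 at least 1 IL27ra KO library lies within the WT range.

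Class I deacetylases, the catalytic subunits of the nuclear corepressor complexes, showed the same split. Hdac1 had 27.8, 54.3, 25.2, 22.9 and 30.3 FPKM in WT replicates 1 to 5 and 18.0, 16.8, 19.4 and 23.8 FPKM in IL27ra KO replicates 1 to 4, with only IL27ra KO replicate 4 inside the WT range. The difference of -0.63 (95% interval -1.16 to -0.11) did not pass (limma, adjusted p = 0.210), was -0.43 without the library labelled WT replicate 2, and passed in 1 of 19 alternative fits, with quality weights (-0.56, adjusted p = 0.0440). Hdac2, its close relative in the same complexes, had 7.20, 3.30, 8.83, 13.0 and 14.5 FPKM in WT and 18.3, 14.3, 10.6 and 12.9 FPKM in IL27ra KO. The difference was 0.65 (95% interval -0.05 to 1.35, adjusted p = 0.378) and 0.36 without the library labelled WT replicate 2, a change of over 1.5 times. That library had the highest Hdac1 and the lowest Hdac2 of all 9, a log2 ratio of 3.68 against 0.78 to 1.81 in the other WT and -0.03 to 0.83 in the IL27ra KO libraries. How reads that fit both genes were assigned is not given in the sources used here, so the separate values of this pair are uncertain. Hdac3, the subunit of NCoR and SMRT complexes, differed by -0.07 (adjusted p = 0.922), with 17.8 FPKM in IL27ra KO replicate 1 above 10.6 to 14.6 FPKM in the other 8 libraries.

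Sirt1, a deacetylase that depends on NAD, had 1.75 to 2.29 FPKM in WT and 1.31, 1.42, 1.66 and 3.68 FPKM in IL27ra KO. The IL27ra KO values lay on both sides of the WT range, and the difference was -0.06 (limma, adjusted p = 0.947).

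**Figure D4:**
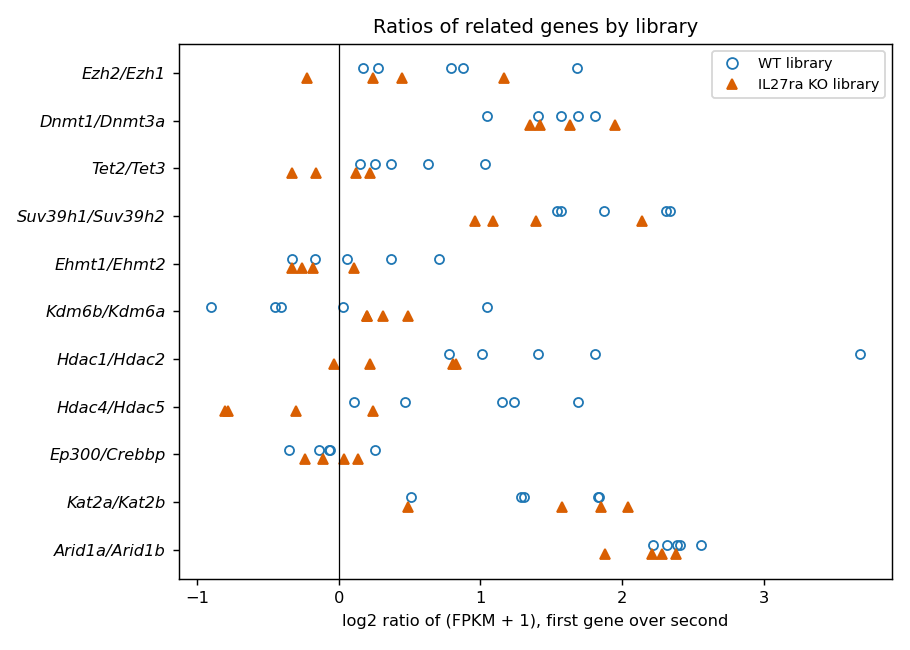
Log2 ratio of (FPKM + 1) between 11 pairs of related genes (x axis) in each WT library (open circles) and IL27ra KO library (triangles). WT symbols lie mostly to the right of IL27ra KO symbols for Hdac4/Hdac5 and Hdac1/Hdac2, with overlap, and the groups overlap for all 11 pairs.

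All 4 histone acetyltransferases had estimates above 0, though Ep300 and Crebbp were below 0 in 6 and 8 of 19 alternative fits, and 0 of 4 passed (limma, 1 at an unadjusted p under 0.05). Kat2a and Kat2b, which encode GCN5 and PCAF, the catalytic subunits of SAGA-type complexes, differed by 0.59 and 0.46 (limma, adjusted p = 0.256 and 0.368). Kat2a had 7.40, 3.04, 7.50, 7.14 and 6.21 FPKM in WT and 11.5, 9.03, 11.4 and 7.09 FPKM in IL27ra KO, so that IL27ra KO replicates 1 to 3 were above every WT library and replicate 4 was not. Without the library labelled WT replicate 2, the lowest, the difference was 0.39, a change of over 1.5 times. Kat2b had 1.34 to 2.29 FPKM in WT and 2.01 to 4.77 FPKM in IL27ra KO, with the highest value in replicate 4, and the difference was 0.26 without that library. The coactivators p300 (Ep300) and CBP (Crebbp) differed by 0.05 and 0.02, with 95% intervals of -0.43 to 0.53 and -0.40 to 0.45. Their ratio was close to 1 in every library, the log2 ratio of Ep300 to Crebbp running from -0.35 to 0.26.

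Subunits of the remodelling complexes had estimates close to 0, with all 5 SWI/SNF estimates between -0.07 and 0.14 and all 5 intervals within a 2-fold change in log2(FPKM + 1). Arid1a and Arid1b, alternative DNA-binding subunits of the BAF form, had log2 ratios of 1.88 to 2.56 in favour of Arid1a in the 9 libraries. Arid1a had 12.9 to 22.5 FPKM in WT and 13.4, 14.1, 12.6 and 24.3 FPKM in IL27ra KO, where replicate 4 was the highest of all. Arid2, of the PBAF form, had 2.88 FPKM in the library labelled WT replicate 2 and 5.61 to 6.76 FPKM in the other 8. The core subunit Smarcb1 had 12.5 to 22.2 FPKM in WT and 15.7 to 17.6 FPKM in IL27ra KO, a difference of 0.13 (limma, adjusted p = 0.843). Chd4, the ATPase of the NuRD complex, which joins remodelling to the deacetylases Hdac1 and Hdac2, had 12.1 to 16.7 FPKM in WT and 11.0 to 13.9 FPKM in IL27ra KO, a difference of -0.17 (adjusted p = 0.729).

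Other chromatin genes were read from lists of the same pathways. Of 139 further genes listed for the same pathways, 137 were in the table and 131 were tested, and 1 passed as higher and 0 as lower (limma), which is 0.763% against 4.24% of all genes tested. At an unadjusted p under 0.05, 8 passed, or 6.11% against 15.1%, with a median difference of -0.03. The gene that passed was Idh1, the cytosolic isocitrate dehydrogenase that makes 2-oxoglutarate, the cosubstrate of the TET and JmjC enzymes. Idh1 had 7.96, 2.89, 4.25, 8.95 and 6.69 FPKM in WT and 19.5, 14.6, 18.6 and 9.45 FPKM in IL27ra KO, and all 4 IL27ra KO libraries lay above the WT range. The difference was 1.24 (SE 0.29, limma adjusted p = 0.0281). It passed in 10 of 19 alternative fits, and leaving out 1 library ended the call for WT replicates 3 and 5 and for IL27ra KO replicates 1, 2 and 3 (adjusted p up to 0.116). Idh1 was lowest among IL27ra KO libraries in replicate 4, which also had the lowest macrophage sum of that group. The library labelled WT replicate 2, with the highest macrophage sum of WT (489 FPKM), had the lowest Idh1 of all libraries (2.89 FPKM). In a fit that included the macrophage marker level the Idh1 difference was 1.00 and did not pass (SE 0.69, limma adjusted p = 0.576).

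By list, passing counts among the partners were 1 of 15 for DNA methylation, 0 of 27 for Polycomb, 0 of 14 for H3K9 and heterochromatin, 0 of 20 for methylation at other lysines of histone H3, 0 of 15 for other deacetylases and corepressors, 0 of 14 for other acetyltransferases and bromodomain proteins and 0 of 26 for other remodelling subunits. Medians of the 7 lists lay between -0.12, for deacetylases and corepressors, and 0.08, for DNA methylation. Daxx, a chaperone of the histone variant H3.3, and Kdm2b, which recruits a Polycomb complex to CpG islands, had the next smallest p, chosen here after their values were seen. Mean levels of Daxx were 7.74 FPKM for WT and 13.7 FPKM for IL27ra KO (difference 0.75, adjusted p = 0.0732) and those of Kdm2b were 8.03 and 4.91 FPKM (-0.63, adjusted p = 0.109).

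**Figure D5:**
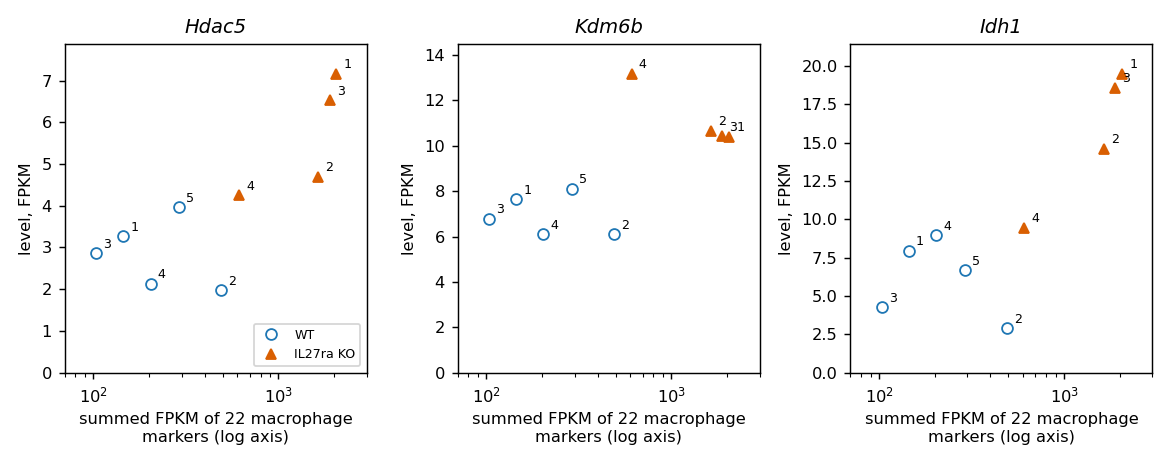
Level (y axis, FPKM) of Hdac5, Kdm6b and Idh1 against the summed FPKM of 22 macrophage markers (x axis, log scale) in the 5 WT (open circles) and 4 IL27ra KO (triangles) libraries, with replicate numbers. IL27ra KO replicate 4, with the lowest macrophage sum of its group, has the lowest Hdac5 and Idh1 and the highest Kdm6b among the IL27ra KO libraries.

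The macrophage sum differed between the genotypes beside Hdac5, Kdm6b and Kat2a, and within the IL27ra KO group it lay on the same side as Hdac5 and Kat2a and on the other side from Kdm6b. Kdm6b in the IL27ra KO library with a macrophage sum of 610.1 FPKM was 13.2 FPKM, above the 10.4 to 10.7 FPKM of the libraries with sums of 1637 to 2051 FPKM. For Hdac5 the corresponding values were 4.25 FPKM and 4.70 to 7.16 FPKM, and for Kat2a 7.09 FPKM and 9.03 to 11.5 FPKM. The library labelled WT replicate 2, with the highest macrophage sum of WT, had the lowest Hdac5 (1.97 FPKM) and Kat2a (3.04 FPKM) of all libraries. In the fit that included the macrophage level the differences of Hdac5 and Kdm6b were 0.58 and 0.92. There 0 of the 33 genes passed (limma), against 0.0675% of all genes tested, so hardly any gene could pass. At an unadjusted p under 0.05, 5 of the 33 passed, and the share of all genes at that cut was not computed. The median SE over all genes was 0.52 with the covariate and 0.24 without it. Kdm6a had 2.00 in that fit and did not pass (limma, adjusted p = 0.226). The macrophage sums of the genotypes did not overlap, so genotype and macrophage RNA cannot be told apart in these libraries.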

How the data were processed

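CD8+ T cells isolated from B16F10 tumours were measured with an adaptation of SMART-Seq 2 in 5 WT and 4 IL27ra KO libraries. The deposited table, made by the authors, gives FPKM per gene after RSEM quantification and TMM scaling, per the labels; the submitters' processing notes name TopHat, RSEM, DESeq and the build mm9, without versions or roles. Columns of other samples numbered 0. No read counts were used here, so fragment totals are estimates from low values of 3810 genes with 1 transcript (65.2% to 69.6% of these values lay within 0.1 of a whole fragment, against 20% if evenly spread). The TMM scaling was not removed from these totals.

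Values were tested as log2(FPKM + 1) in limma 3.58.1 under R 4.3.3, over 10374 genes (mean over libraries 1 FPKM or more), with 9 libraries, genotype as the sole term and a Benjamini-Hochberg adjusted p under 0.05. A fold on this scale understates the change of low genes. The 3 genes below the filter were compared by a two-sided exact permutation test over 126 splits, whose smallest p is 0.0159. On simulated data with 200 of 10374 genes changed in this comparison, 41% were recovered at a log2 change of 1 and 98.5% at 2.

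The genes and lists were chosen with earlier results of these data known. All members were described by role; up to 3 partner genes past the threshold were named per list, and up to 3 markers by mean level. Marker lists covered CD8+ and CD4+ T cells, macrophages, dendritic cells, neutrophils, B and NK cells, melanoma, stroma and proliferation. Alternatives were another pseudocount, filters, scalings, library weights, a macrophage covariate, a replicate block and leaving out each library. A second motif was searched in the same promoters and is not reported here. The motif, the promoters and the fit without both WT replicate 2 and IL27ra KO replicate 4 were chosen after seeing the data. Promoters come from RefSeq (GRCm38.p6), a build that differs from the files' mm9, and were matched by symbol without converting coordinates.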

Additional observations from a re-analysis of the deposited data

Results flagged for a closer look

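Dixon's criterion for a value far from the rest of its group is met by chance in about 1 in 20 groups of independent values. The groups here share the same 9 libraries, and the share over all genes was not computed. By that criterion 1 library lay far from the others of its genotype in 12 of 72 gene and genotype groups (16.7%). IL27ra KO replicate 4 accounted for 5, each as the highest of its group: Kdm6b at 13.17 FPKM (others 10.40 to 10.66), Hdac4 at 5.19 FPKM (3.40 to 3.68), Sirt1 at 3.68 FPKM (1.31 to 1.66), Kat2b at 4.77 FPKM (2.01 to 2.46) and Arid1a at 24.26 FPKM (12.61 to 14.11). The library labelled WT replicate 2 accounted for 3, with Hdac1 at 54.29 FPKM (others 22.92 to 30.27), Kat2a at 3.04 FPKM (6.21 to 7.50) and Arid2 at 2.88 FPKM (5.85 to 6.76). IL27ra KO replicate 1 stood apart for Hdac3 at 17.82 FPKM (10.59 to 11.48) and Hdac9 at 1.20 FPKM (0.32 to 0.44). The other two were Ehmt1 at 7.83 FPKM in IL27ra KO replicate 2 (6.21 to 6.47) and Suv39h2 at 1.64 FPKM in WT replicate 5 (0.52 to 0.84).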

How the results depend on the processing

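Under 19 alternatives, the count of the 33 genes past the threshold in limma was 0 of either direction except in 4. It was 2 higher (Hdac5 and Kdm6b) on scaling to CD8+ T cell identity markers, which moved the median of all genes to 0.54. In that fit 8.08% of all genes tested passed. It was 2 higher (the same genes) and 1 lower (Hdac1) with library quality weights, against 9.39% of all genes tested. It was 1 higher (Hdac5) without IL27ra KO replicate 4, against 6.15%, and without it and WT replicate 2, against 8.59%. Leaving out 1 library gave 0 to 1 higher and 0 to 0 lower. Partner genes higher numbered 1, against 0 with no filter on low values, 0 with the same total without Rn45s, 0 with the macrophage covariate, 4 with CD8+ T cell scaling and 2 without both libraries, and 0 to 2 on leaving out 1 library. Partner genes lower numbered 0, against 1 with quality weights, 1 without both libraries and 0 to 1 on leaving out 1 library. The causes were not tested. Calls over all genes, 440, were 219 with a filter of 5 FPKM, 838 with CD8+ T cell scaling, 974 with quality weights, 7 with the macrophage covariate, 273 with the replicate block, 894 without both libraries and 227 to 639 on leaving out 1 library.

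With the replicate number as a block, 0 of the 33 genes and 0 partner genes passed, against 2.63% of all genes tested. Same-numbered libraries did not deviate together over the genes tested (r = 0.003, -0.008, -0.066 and -0.147 for replicates 1 to 4). The labels state no pairing, and such a correlation cannot exclude a weak one. With 1730000 to 4100000 estimated fragments a library, 1 fragment was worth 0.244 to 0.579 FPKM in a transcript of 1 kb and less in a longer one. Dnmt3b, Tet1 and Hdac9 had means under 1 FPKM, and the number of fragments behind their values was not computed.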
